A study of Rattus norvegicus with 60 samples.

Results

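The transcripts of 10 genes were followed here: Atf3, Ddit3, Ddit4, Trib3, Asns, Pck2, Sdf2l1, Hspa5, Herpud1 and Dnajb9, well-known genes of the integrated stress response and of the endoplasmic reticulum (ER) stress response, measured in rat liver. Members were the probe sets annotated to exactly 1 of these symbols, which gave 13 of the 31042 probe sets tested. For each gene the probe set with the highest mean over all 60 arrays was used, which left 10 of the 14217 genes that the array names.

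Male F344/N rats, which were 5 to 6 weeks old when the study began, were gavaged for 5 days with N,N-dimethyl-p-toluidine (DMPT), with p-toluidine, the same aromatic amine without the methyl groups on its nitrogen, or with the corn oil vehicle of either chemical. Each chemical had groups at 1, 6, 20, 60 and 120 mg/kg per day and a vehicle group of its own, with 5 liver arrays per group. RNA of the left lateral liver lobe was hybridised to Affymetrix arrays of rat transcripts, and the deposited values are taken as log2 expression. The labels number the arrays within a group without tying them to animals, so the p-values below measure the spread between these samples. Rats were housed 2 per cage and cage mates are not identified, so a shared cage could not be taken into account.

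The integrated stress response begins when a kinase that senses a shortage of amino acids, haem stress, viral RNA or unfolded ER protein phosphorylates the initiation factor eIF2; bulk translation drops, while the transcription factor ATF4 is translated and switches on genes for amino acid supply and stress handling. Unfolded protein in the ER lumen also activates ATF6 and, through IRE1, XBP1, which raise chaperones and the machinery that removes misfolded protein. Hepatocytes secrete most plasma proteins and keep much ER, so both programmes are much studied in liver.

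Promoter sequences were searched for some of the elements that these factors are known to bind. RefSeq sequences of assembly GRCr8 were found for 9 of the 10 members, and the 250 bases before the annotated start were searched on both strands. The C/EBP-ATF response element bound by ATF4 was searched as TGATGNAA, the cyclic AMP response element as TGACGTCA, the unfolded protein response element as TGACGTGG, and the ER stress response element by its name, as CCAAT, 9 bases of any kind and CCACG. The letters of the cyclic AMP and unfolded protein elements share TGACGT. The 4 promoters that held a match are printed 5′ to 3′ in the direction of the gene, with the match in capitals.
Trib3 (chr3:161275534-161275783, minus strand): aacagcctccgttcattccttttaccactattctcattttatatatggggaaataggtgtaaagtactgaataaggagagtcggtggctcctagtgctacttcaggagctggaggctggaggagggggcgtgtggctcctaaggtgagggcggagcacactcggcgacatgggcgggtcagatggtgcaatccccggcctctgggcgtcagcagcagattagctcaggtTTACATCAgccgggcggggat
Pck2 (chr15:32997603-32997852, plus strand): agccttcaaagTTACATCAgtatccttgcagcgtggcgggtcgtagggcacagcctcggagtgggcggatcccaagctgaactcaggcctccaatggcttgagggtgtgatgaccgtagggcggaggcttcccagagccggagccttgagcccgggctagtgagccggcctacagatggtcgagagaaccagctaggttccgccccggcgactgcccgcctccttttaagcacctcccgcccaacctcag
Herpud1 (chr19:10614708-10614957, minus strand): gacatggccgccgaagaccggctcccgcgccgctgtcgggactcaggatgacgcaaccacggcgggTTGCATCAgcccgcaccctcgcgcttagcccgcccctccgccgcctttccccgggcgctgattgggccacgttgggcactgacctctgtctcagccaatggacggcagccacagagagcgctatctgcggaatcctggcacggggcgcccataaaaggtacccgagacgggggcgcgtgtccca
Hspa5 (chr3:38452766-38453015, plus strand): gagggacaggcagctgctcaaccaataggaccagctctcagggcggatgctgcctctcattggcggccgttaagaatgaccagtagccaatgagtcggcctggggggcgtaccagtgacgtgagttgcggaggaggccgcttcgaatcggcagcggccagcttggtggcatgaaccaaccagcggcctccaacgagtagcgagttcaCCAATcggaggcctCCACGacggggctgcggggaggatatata
The C/EBP-ATF letters stood 21 to 14 bases before the start of Trib3, 239 to 232 bases before that of Pck2 and 184 to 177 bases before that of Herpud1, each on the opposite strand, and 3.4% of the 33469 promoters searched held them. The ER stress response element stood 43 to 25 bases before the start of Hspa5, and 0.0657% of all promoters, 22 in number, held it. No member window held the cyclic AMP letters (1.59% of all promoters) or the unfolded protein letters (0.52% of all promoters). A match describes the letters and is no evidence of binding, and a missing match says only that the letters are not in this window. Other elements were not searched, so a window may hold elements that are not marked.

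Array medians ran from 3.53 to 3.61 on the DMPT arrays and from 2.73 to 2.81 on the p-toluidine arrays, so levels were compared only within a chemical. The 6 hepatocyte markers on the array of the 7 listed lay between 11.64 and 13.88 (log2 expression) on every array, and 1 of them, Serpina1, was called lower, at DMPT 20, 60 and 120 mg/kg (-0.18, -0.18 and -0.23) and p-toluidine 60 mg/kg (-0.22). On 5 DMPT arrays the values had a narrow spread: replicate 3 at 6 mg/kg, replicates 3 and 5 at 60 mg/kg, and replicates 2 and 5 at 120 mg/kg. Transcripts are measured in whole liver, where fewer cells of a type and less RNA per cell cannot be told apart. Among markers of other cells, summed on the linear scale, the 3 cholangiocyte markers on the array of the 4 listed summed to 102 to 134 at DMPT 120 mg/kg, against 42.4 to 66.1 in vehicle arrays, and to 61.9 to 82.1 at p-toluidine 120 mg/kg, against 22.4 to 33.1 in vehicle arrays. Only Epcam of these was called. It was higher by 0.97, 1.08 and 1.47 (log2) at DMPT 20, 60 and 120 mg/kg and by 0.77, 1.28 and 1.84 at the same doses of p-toluidine. Krt19 and Krt7 stood at 0.07 and -0.10 at DMPT 120 mg/kg and at -0.35 and -0.06 at p-toluidine 120 mg/kg. In every group the means of Krt19 and Krt7 lay below the array medians, so these 2 may be at background. The 5 stellate cell markers summed to 561 to 772 at p-toluidine 120 mg/kg, against 803 to 937 in vehicle arrays, and 923 to 1070 at DMPT 60 mg/kg, against 941 to 1400. Of these Col3a1 was called lower at DMPT 60 mg/kg and p-toluidine 60 and 120 mg/kg, Reln at DMPT 120 mg/kg and p-toluidine 60 and 120 mg/kg, and Lrat at p-toluidine 60 mg/kg. Of the other lists, Cd14 among the 4 macrophage markers on the array was called higher at DMPT 20 and 120 mg/kg and p-toluidine 60 mg/kg, Ahsp among 2 erythroid markers at 120 mg/kg of each chemical and Cd3d among 5 lymphocyte markers at DMPT 120 mg/kg, while no neutrophil or sinusoidal endothelial marker was called against vehicle. None of the 6 pancreatic acinar markers was called, and their sums stayed between 15.2 and 29.0 in every group. Cd3d averaged 1.94 at DMPT 120 mg/kg and 1.69 in vehicle arrays, below the array medians, so it may be at background. Of all probe sets 2.61%, 5.2% and 9.8% were called at DMPT 20, 60 and 120 mg/kg, and 0.786%, 4.51% and 10.7% at the same doses of p-toluidine. As a measure of RNA quality, the beta-actin signal at its 3′ end exceeded that at its 5′ end by 1.28 ± 0.081 at DMPT 120 mg/kg, against 1.483 ± 0.148 in vehicle arrays, and 1.515 ± 0.085 at p-toluidine 120 mg/kg, against 1.802 ± 0.147 in vehicle arrays (log2, SD, n = 5 each). The part of these differences in the results was not tested.

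Against their own vehicle groups, 6 of the 10 members changed at some dose: Atf3, Ddit4, Asns, Pck2 and Sdf2l1 rose and Hspa5 fell. Ddit3, Trib3, Herpud1 and Dnajb9 were called at no dose of either chemical. A change was called when limma's moderated test gave an adjusted p of at most 0.05 (Benjamini-Hochberg over all probe sets of the comparison), and 17 of the 100 member tests passed, 13 higher and 4 lower. In 12 of these 17 (70.6%) the dosed and vehicle arrays did not overlap, beside 65.4% of all 10499 called tests of probe sets in the same comparisons, so the members' share was near that of called probe sets in general. Each chemical's 5 comparisons share 1 vehicle group, so a chance deviation of that group enters all of them.

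For DMPT, no member was called at 1 mg/kg, where 0% of all probe sets were called and 1 member, Hspa5, had an unadjusted p below 0.05 among 1643 probe sets that did. At 6 mg/kg 1 member was called, against a background of 0.168% of all probe sets. At 20 mg/kg 3 members were called against 2.61%, at 60 mg/kg 4 members against 5.2%, and at 120 mg/kg 2 members against 9.8%. The members' median change was 0.02, 0.03, 0.33, 0.33 and 0.16 (log2) from 1 to 120 mg/kg, while the median of all probe sets stayed between -0.01 and 0.01. For p-toluidine, no member was called at 1 or 6 mg/kg, where 0% of probe sets were called and 1 and 3 members had an unadjusted p below 0.05, beside 1992 and 2557 of all probe sets. At 20 mg/kg 1 member was called against 0.786%, at 60 mg/kg 2 members against 4.51%, and at 120 mg/kg 4 members against 10.7%. The p-toluidine medians were -0.01, -0.05, -0.04, 0.24 and 0.65 from 1 to 120 mg/kg, beside 0.00 to 0.01 for all probe sets. The members were chosen with earlier results known, so these counts describe them and test nothing about the group.

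**Figure D1:**
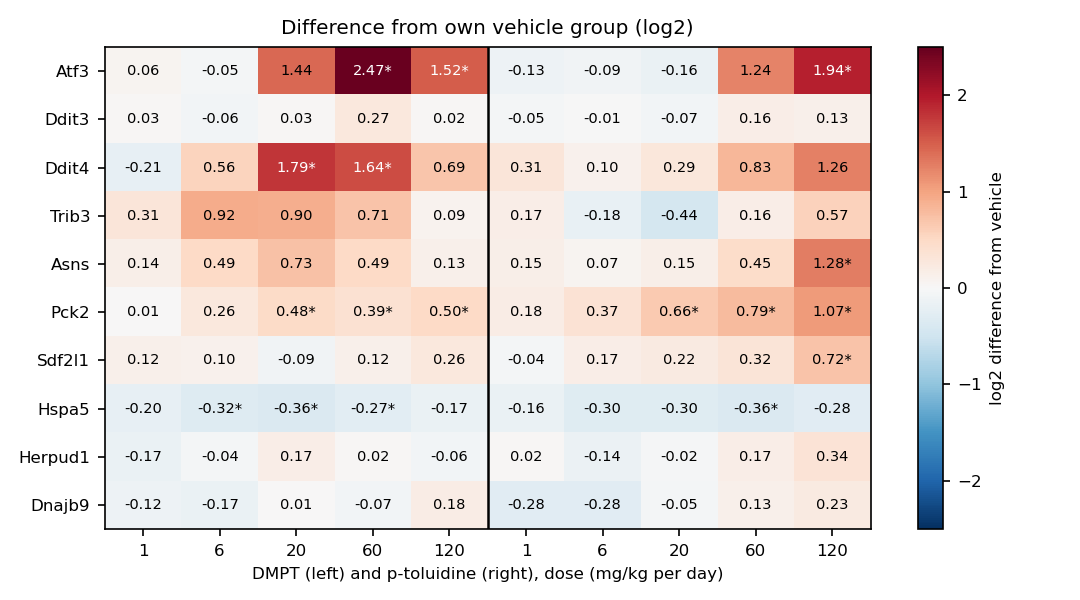
Mean log2 difference of each member from its own vehicle group, by dose in mg/kg per day, for DMPT in the left block and p-toluidine in the right block (5 arrays per group). A star marks an adjusted p of at most 0.05. The darkest cells are Atf3 at DMPT 60 mg/kg (2.47) and at p-toluidine 120 mg/kg (1.94), and the Hspa5 row is below 0 throughout.

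Atf3, a transcription factor of the basic leucine zipper class that many stresses induce, showed the largest differences among the members. At DMPT 60 mg/kg its log2 values were 5.82, 6.40, 5.09, 5.43 and 6.08, against 3.40, 3.60, 3.21, 2.98 and 3.29 in vehicle arrays. Every dosed array lay above every vehicle array, a rise of 2.47 ± 0.46 (log2, SE) or 5.52-fold with an adjusted p of 0.00116 in limma. Of the 5 vehicle values 4 lay below their array medians, so the level there may be at background, which was not measured, and the fold is that of the deposited values. At 120 mg/kg the values were 6.10, 5.43, 5.03, 4.05 and 3.47, and replicate 5 fell inside the vehicle range; the rise of 1.52 ± 0.46 (2.86-fold) was called at an adjusted p of 0.0324. That call was lost in 7 of 10 fits that left out an array, without vehicle replicate 1, 3, 4 or 5 or 120 mg/kg replicate 1, 2 or 3, with adjusted p between 0.054 and 0.128.

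The arrays at DMPT 20 mg/kg split widely for Atf3. They read 2.99, 6.74, 3.53, 5.81 and 4.63, so replicates 2, 4 and 5 were above all vehicle arrays while replicates 1 and 3 were not. The difference of 1.44 ± 0.46 was not called (limma adjusted p = 0.0962). This SE is a shared estimate over all 6 DMPT groups, whose SDs ran from 0.23 in vehicle arrays to 1.56 at 20 mg/kg. At lower doses Atf3 averaged 3.30 ± 0.23, 3.36 ± 0.27 and 3.25 ± 0.46 (SD, n = 5 each) at vehicle, 1 and 6 mg/kg.

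With p-toluidine, Atf3 was called at the top dose. The arrays read 3.00, 5.55, 2.79, 4.20 and 4.71 at 120 mg/kg, against 1.95, 1.62, 2.70, 2.04 and 2.23 in vehicle arrays. The groups did not overlap, and the rise was 1.94 ± 0.48 or 3.84-fold (adjusted p = 0.00669). On replicate 4 at 60 mg/kg Atf3 read 6.20 while the other arrays read 2.90, 2.30, 3.36 and 1.98, and the difference of 1.24 ± 0.48 was not called (adjusted p = 0.168). The p-toluidine vehicle values lay below the array medians, and no detection call was used, so whether Atf3 was above background there is not known.

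Ddit4, also called REDD1, restrains the growth kinase complex mTORC1. At DMPT 20 mg/kg it read 5.43, 7.97, 6.97, 7.14 and 7.38, against 6.08, 4.64, 5.59, 5.02 and 4.61 in vehicle arrays. All but replicate 1 exceeded the whole vehicle group, and the rise was 1.79 ± 0.39 or 3.46-fold (adjusted p = 0.00908). The 60 mg/kg values of 6.90, 6.86, 6.63, 7.65 and 6.11 were all above vehicle, by 1.64 ± 0.39 or 3.12-fold (adjusted p = 0.0096).

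Ddit4 was not called at DMPT 120 mg/kg, where the arrays read 6.05, 5.14, 6.85, 6.13 and 5.21 and overlapped vehicle (0.69 ± 0.39, adjusted p = 0.323). With p-toluidine its mean stood at 4.98 ± 0.89, 5.29 ± 0.68, 5.08 ± 0.91, 5.28 ± 0.96, 5.81 ± 0.40 and 6.24 ± 0.69 from vehicle to 120 mg/kg (SD, n = 5 each). The difference at 120 mg/kg, 1.26 ± 0.44, missed the threshold at an adjusted p of 0.0613. Vehicle replicates 3 and 5, at 5.32 and 6.39, overlapped the dosed arrays, while the other vehicle arrays ran from 4.15 to 4.60.

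Ddit3, which encodes CHOP, a transcription factor tied to cell death after lasting ER stress, moved little. Group means ran from 5.00 to 5.32 for DMPT, and the largest difference was 0.27 ± 0.12 at 60 mg/kg (adjusted p = 0.231, 95% interval 0.02 to 0.51). For p-toluidine they ran from 4.14 to 4.38, with the largest difference 0.16 ± 0.14 at 60 mg/kg (adjusted p = 0.645, 95% interval -0.11 to 0.44).

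Trib3, a pseudokinase induced by ATF4 and CHOP that binds the kinase AKT, varied widely within groups. At DMPT 6 mg/kg it read 7.32, 6.34, 5.68, 5.52 and 5.90, against 6.23, 4.21, 5.66, 5.00 and 5.07 in vehicle arrays. The groups overlapped, and the difference of 0.92 ± 0.41 was not called (adjusted p = 0.512), nor was that of 0.90 ± 0.41 at 20 mg/kg (adjusted p = 0.297). The p-toluidine vehicle arrays spanned 3.84 to 6.99, and no p-toluidine difference exceeded 0.57 ± 0.49 (adjusted p = 0.556). The Trib3 probe set is of a type whose probes match more than 1 transcript, and its other 2 probe sets were called in no comparison either.

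**Figure D2:**
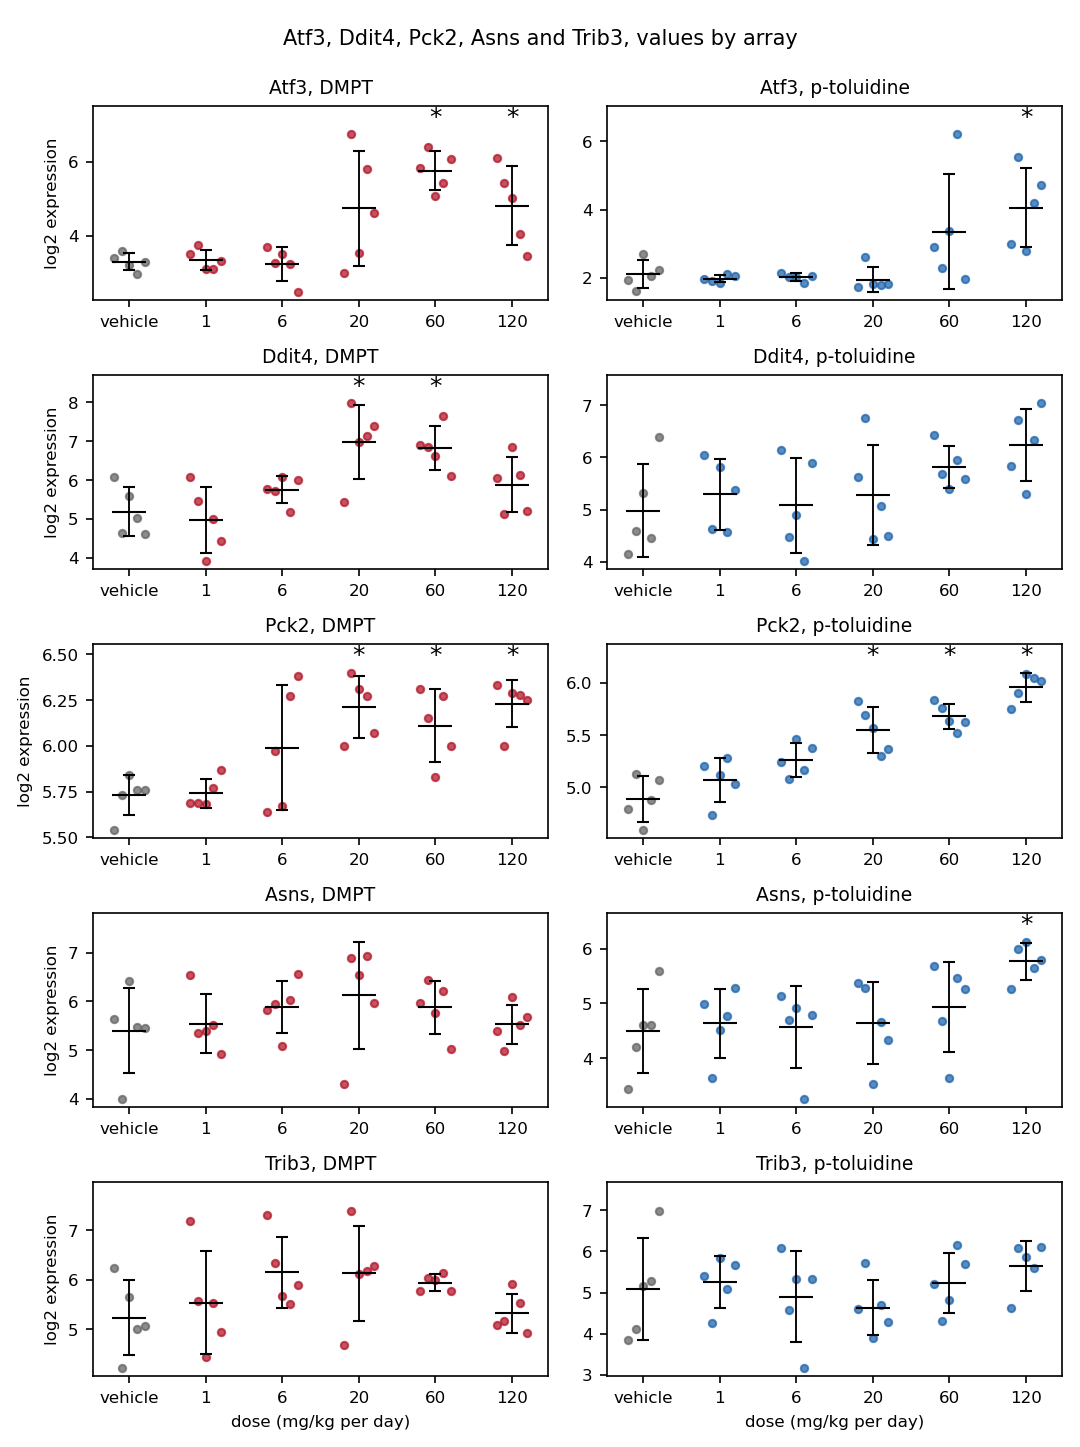
Log2 expression of Atf3, Ddit4, Pck2, Asns and Trib3 on every array, by dose in mg/kg per day, with DMPT on the left and p-toluidine on the right. Points are arrays, the long bar is the group mean, the error bar is the SD (n = 5), and a star marks a called difference from vehicle. The 5 Atf3 arrays at DMPT 60 mg/kg lie between 5.09 and 6.40, all above the vehicle arrays, while those at 20 mg/kg spread from 2.99 to 6.74.

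Asns makes asparagine and is a classical target of ATF4. It was called at p-toluidine 120 mg/kg, where the arrays read 5.26, 6.00, 6.13, 5.64 and 5.79, against 3.44, 4.21, 4.60, 4.61 and 5.59 in vehicle arrays. Vehicle replicate 5 overlapped the dosed arrays, and the rise was 1.28 ± 0.39 or 2.42-fold (adjusted p = 0.0302). This call was lost in 6 of 10 fits with an array left out, without vehicle replicate 1, 2 or 4 or 120 mg/kg replicate 2, 3 or 5 (adjusted p 0.0503 to 0.116). For DMPT the largest Asns difference was 0.73 ± 0.40 at 20 mg/kg (adjusted p = 0.404), with array values from 4.30 to 6.94, against 3.99 to 6.43 in vehicle arrays.

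Pck2, the mitochondrial phosphoenolpyruvate carboxykinase, turns oxaloacetate into phosphoenolpyruvate. It was called at the 3 upper doses of both chemicals. At p-toluidine 20 mg/kg it read 5.83, 5.69, 5.57, 5.30 and 5.37, at 60 mg/kg 5.84, 5.76, 5.64, 5.52 and 5.63, and at 120 mg/kg 5.75, 5.90, 6.09, 6.05 and 6.02, against 4.79, 5.13, 4.59, 4.88 and 5.07 in vehicle arrays. None of these 15 arrays overlapped the vehicle group. The rises were 0.66 ± 0.11 (1.58-fold, adjusted p = 0.00204), 0.79 ± 0.11 (1.72-fold, adjusted p = 2.64e-05) and 1.07 ± 0.11 (2.1-fold, adjusted p = 3.42e-08) at 20, 60 and 120 mg/kg. At 1 and 6 mg/kg the differences were 0.18 ± 0.11 and 0.37 ± 0.11 (adjusted p = 0.861 and 0.302).

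For DMPT the Pck2 rises lay between 0.39 and 0.50 at these doses. The arrays read 6.00, 6.40, 6.31, 6.27 and 6.07 at 20 mg/kg, and 6.33, 6.00, 6.29, 6.28 and 6.25 at 120 mg/kg, against 5.54, 5.73, 5.84, 5.76 and 5.76 in vehicle arrays. Neither dosed group overlapped vehicle, and the rises were 0.48 ± 0.11 (1.4-fold, adjusted p = 0.0162) at 20 mg/kg and 0.50 ± 0.11 (1.41-fold, adjusted p = 0.0038) at 120 mg/kg. At 60 mg/kg replicate 3, at 5.83, lay inside the vehicle range while the other arrays read 6.00 to 6.31, and the rise was 0.39 ± 0.11 (adjusted p = 0.0423). The 20 mg/kg call was lost without vehicle replicate 1 or without 20 mg/kg replicate 2 (adjusted p 0.0529 to 0.0602). The 60 mg/kg call was lost in 7 of 10 such fits, without vehicle replicate 1, 2, 4 or 5 or 60 mg/kg replicate 1, 2 or 4 (adjusted p 0.0652 to 0.115).

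The other Pck2 probe set gave smaller differences, which were not tested against those of the first. It rose by 0.61 ± 0.13 at p-toluidine 120 mg/kg (adjusted p = 0.00133) and by 0.43 ± 0.13 at DMPT 120 mg/kg (adjusted p = 0.0243). At 20 and 60 mg/kg it was not called, with 0.19 ± 0.13 and 0.28 ± 0.13 for p-toluidine (adjusted p = 0.643 and 0.262), and 0.39 ± 0.13 and 0.34 ± 0.13 for DMPT (adjusted p = 0.0964 and 0.122). All these differences had the same sign as those of the brighter probe set, while at p-toluidine 1 and 6 mg/kg the weaker probe set stood at -0.14 and -0.06.

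Hspa5, the ER chaperone BiP, holds unfolded proteins in the ER lumen and keeps the stress sensors inactive; it was the member that fell. At DMPT 20 mg/kg it read 10.53, 10.46, 10.66, 10.55 and 10.54, against 10.94, 10.97, 10.92, 10.85 and 10.88 in vehicle arrays. The groups were clearly apart, and Hspa5 fell by 0.36 ± 0.07 or 1.28-fold (adjusted p = 0.00336). The arrays also stayed below every vehicle array at 6 mg/kg, with 10.68, 10.68, 10.59, 10.55 and 10.43, and at 60 mg/kg, with 10.57, 10.75, 10.60, 10.67 and 10.63. The differences there were -0.32 ± 0.07 (adjusted p = 0.0413) and -0.27 ± 0.07 (adjusted p = 0.0177).

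The DMPT vehicle arrays were tight for Hspa5, with an SD of 0.04. At 120 mg/kg the arrays, from 10.70 to 10.79, were again all below vehicle, and the difference of -0.17 ± 0.07 was not called (adjusted p = 0.129). The 6 mg/kg call was lost in 8 of 10 fits with an array left out, without any of the 5 vehicle arrays or 6 mg/kg replicate 3, 4 or 5 (adjusted p 0.0752 to 0.162). Without the 5 arrays of narrow spread the 6 and 60 mg/kg calls were lost (adjusted p = 0.09 and 0.101), and no other DMPT call of a member was.

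With p-toluidine, Hspa5 read 10.17, 10.36, 9.87, 9.94 and 10.13 at 60 mg/kg, against 10.40, 10.59, 10.57, 10.39 and 10.31 in vehicle arrays. Replicate 2 overlapped vehicle, and the difference was -0.36 ± 0.10 (1.28-fold lower, adjusted p = 0.0396). That call was lost in 8 of 10 fits, without vehicle replicate 1, 2, 3 or 4 or 60 mg/kg replicate 1, 3, 4 or 5 (adjusted p 0.0537 to 0.12). The differences of -0.30, -0.30 and -0.28 at 6, 20 and 120 mg/kg were not called (adjusted p = 0.407, 0.192 and 0.086).

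Sdf2l1, an ER protein that works in chaperone complexes with Hspa5, rose at p-toluidine 120 mg/kg. It read 7.67, 7.32, 7.33, 7.35 and 7.70, against 6.91, 7.29, 6.58, 6.63 and 6.35 in vehicle arrays. Every dosed array lay above every vehicle array, although replicate 2 at 7.32 and vehicle replicate 2 at 7.29 were close, and the rise was 0.72 ± 0.15 or 1.65-fold (adjusted p = 0.00119). Group means from vehicle to 120 mg/kg were 6.75 ± 0.36, 6.71 ± 0.19, 6.92 ± 0.29, 6.98 ± 0.20, 7.07 ± 0.27 and 7.47 ± 0.19 (SD, n = 5 each). With DMPT the largest difference was 0.26 ± 0.16 at 120 mg/kg (adjusted p = 0.377).

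Herpud1, a membrane protein of ER-associated degradation, was called nowhere. Its largest DMPT differences were 0.17 ± 0.13 at 20 mg/kg (adjusted p = 0.589) and -0.17 ± 0.13 at 1 mg/kg (adjusted p = 0.965). At p-toluidine 120 mg/kg it read 7.52, 7.88, 7.34, 7.56 and 8.11, against 7.32, 7.28, 7.10, 7.19 and 7.84 in vehicle arrays, which overlapped (0.34 ± 0.14, adjusted p = 0.144).

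Dnajb9, an ER co-chaperone of Hspa5 that is also known as ERdj4, was called nowhere either. Its DMPT differences ran from -0.17 at 6 mg/kg to 0.18 at 120 mg/kg (adjusted p = 0.791 and 0.468). With p-toluidine all 5 arrays were below the vehicle mean at 1 and at 6 mg/kg, by a mean of -0.28 ± 0.12 at each (adjusted p = 0.725 and 0.52). At 120 mg/kg the difference was 0.23 ± 0.12 (adjusted p = 0.239).

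**Figure D3:**
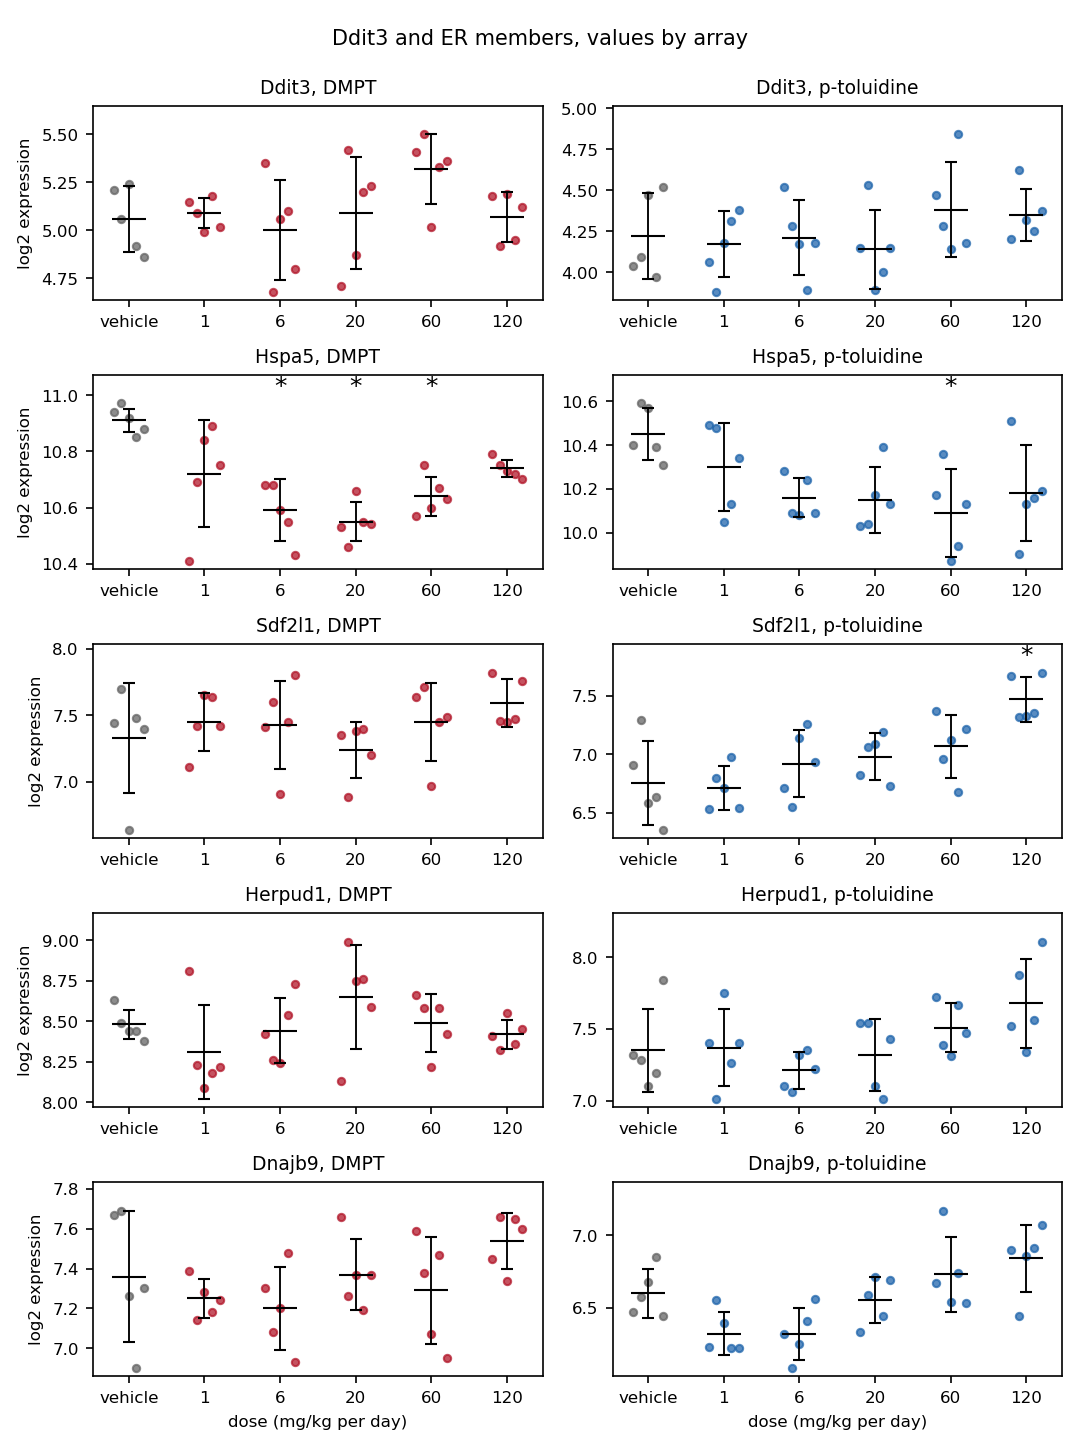
Log2 expression of Ddit3, Hspa5, Sdf2l1, Herpud1 and Dnajb9 on every array, by dose in mg/kg per day, with DMPT on the left and p-toluidine on the right. Points are arrays, the long bar is the group mean, the error bar is the SD (n = 5), and a star marks a called difference from vehicle. Hspa5 arrays at DMPT 6 to 60 mg/kg lie between 10.43 and 10.75, below the vehicle arrays at 10.85 to 10.97.

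Steps between the upper doses were also tested. From DMPT 20 mg/kg up, Atf3 averaged 4.74 ± 1.56, 5.76 ± 0.52 and 4.82 ± 1.06 and Ddit4 averaged 6.98 ± 0.94, 6.83 ± 0.56 and 5.88 ± 0.71 (SD, n = 5 each). At 120 mg/kg against 60 mg/kg the differences were -0.95 ± 0.46 for Atf3 (adjusted p = 0.614) and -0.95 ± 0.39 for Ddit4 (adjusted p = 0.488), neither beyond the spread after adjustment. None of the 40 member tests of steps was called, against backgrounds of 0.11% for DMPT 60 against 20 mg/kg, 0.174% for DMPT 120 against 60 mg/kg, 0.106% for p-toluidine 60 against 20 mg/kg and 0.838% for p-toluidine 120 against 60 mg/kg. Unadjusted p-values below 0.05 were found for 1, 3, 1 and 3 of the 10 members in these steps, beside 11.9%, 8.12%, 7.71% and 9.89% of all probe sets. With p-toluidine, Atf3 differed by 0.70 ± 0.48 at 120 against 60 mg/kg (adjusted p = 0.717), and this step was called when 60 mg/kg replicate 4 was left out.

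Responses to DMPT and p-toluidine, each dose minus its own vehicle, were set against each other at equal doses, in 50 tests of 10 members at 5 doses. No member's difference was called. The background was 0% of probe sets at 1, 6, 20 and 60 mg/kg and 0.00644% at 120 mg/kg, and 5 of the 50 had an unadjusted p below 0.05, which were 2, 1 and 2 of the 10 members at 20, 60 and 120 mg/kg, beside 7.34%, 4.79% and 6.63% of all probe sets. For Pck2 at 120 mg/kg the response was 0.50 to DMPT and 1.07 to p-toluidine, a difference of -0.57 with a 95% interval of -0.89 to -0.24 (adjusted p = 0.287). At 60 mg/kg the Pck2 difference was -0.40 (95% interval -0.73 to -0.07, adjusted p = 0.999).

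At 20 mg/kg the Atf3 response was 1.44 to DMPT and -0.16 to p-toluidine, and the Ddit4 response was 1.79 to DMPT and 0.29 to p-toluidine. The difference was 1.60 for Atf3 (95% interval 0.18 to 3.02, adjusted p = 0.626), and for Ddit4 its 95% interval ran from 0.26 to 2.74 (adjusted p = 0.601). Asns at 120 mg/kg responded by 0.13 to DMPT and 1.28 to p-toluidine, a difference of -1.14 (-2.33 to 0.04, adjusted p = 0.772). For Hspa5 the interval ran from -0.31 to 0.19 at 20 mg/kg and from -0.16 to 0.34 at 60 mg/kg, so differences in response beyond these bounds were outside the intervals. For Atf3 at 120 mg/kg the interval, -1.84 to 1.00, was too wide to tell whether the responses were alike.

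**Figure D4:**
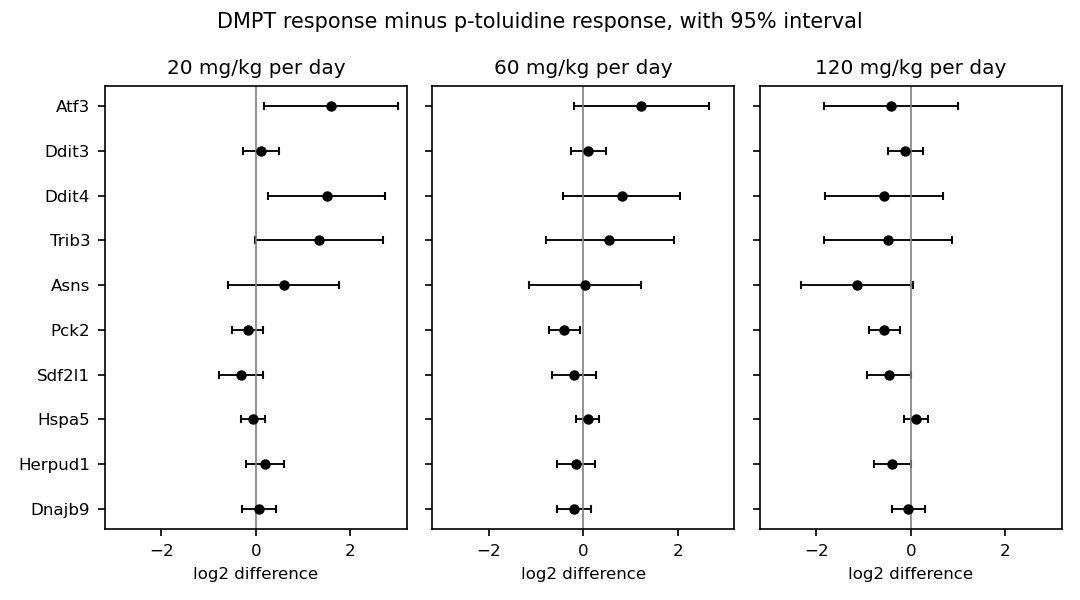
Difference between the DMPT response and the p-toluidine response (log2, each dose minus its own vehicle) for the 10 members at 20, 60 and 120 mg/kg per day, with 95% intervals from the fit of all 60 arrays. Points right of 0 mark a higher DMPT response. The Pck2 interval at 120 mg/kg runs from -0.89 to -0.24, and no difference passed the adjustment over all probe sets.

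Members also varied together between arrays of the same group. Deviations from the group mean were correlated over the 30 arrays of each chemical for the 45 pairs of members, with permutation of arrays within groups (two-sided, 100000 permutations) and adjustment over the 45 pairs. With DMPT 12 pairs were called and with p-toluidine 9, and 7 pairs were called with the same sign in both. After quantile normalization over all arrays 6 pairs were called with DMPT and 12 with p-toluidine, and pairs of other genes were not counted. Ddit4 and Trib3 had a Pearson r of 0.81 with DMPT (Spearman rho 0.71, permutation p = 1e-05, the smallest these permutations can give, adjusted p = 0.00045) and 0.76 with p-toluidine (rho 0.73, permutation p = 2e-05, adjusted p = 0.00045). Without the 2 arrays farthest from the median of Ddit4, r was 0.73 and 0.68.

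Trib3 and Asns had an r of 0.68 with DMPT (rho 0.55, permutation p = 0.00097, adjusted p = 0.00873, and 0.53 without the 2 farthest arrays) and of 0.81 with p-toluidine (rho 0.75, permutation p = 1e-05, adjusted p = 0.00045, and 0.75 without them). Ddit4 and Asns had an r of 0.67 with each chemical (rho 0.54 and 0.64, permutation p = 0.00063 and 0.00012, adjusted p = 0.00709 and 0.00135, and 0.59 and 0.61 without the 2 farthest arrays). Ddit4 and Herpud1 had 0.67 and 0.59 (rho 0.56 and 0.57, permutation p = 0.00051 and 0.00218, adjusted p = 0.00709 and 0.0123, and 0.53 and 0.48 without the 2). Within a dose group, these members tended to be high or low on the same arrays.

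Atf3 went with Ddit3, at an r of 0.64 with DMPT and 0.62 with p-toluidine (rho 0.56 and 0.62, permutation p = 0.00198 and 0.00017, adjusted p = 0.0148 and 0.00153), which was 0.46 and 0.45 without the 2 farthest arrays. Ddit3 also went with Ddit4, at 0.52 and 0.64 (rho 0.53 and 0.65, permutation p = 0.00462 and 0.00049, adjusted p = 0.0257 and 0.00315, and 0.43 and 0.63 without the 2), and with Trib3, at 0.53 and 0.72 (rho 0.45 and 0.67, permutation p = 0.00628 and 6e-05, adjusted p = 0.0257 and 0.0009, and 0.49 and 0.68 without the 2). By Spearman rho the DMPT call of Ddit3 and Trib3 was lost (permutation, adjusted p = 0.0896). Asns and Herpud1 were called with DMPT (r = 0.71) and Ddit3 and Asns with p-toluidine (r = 0.72), and whether such correlations differ between the chemicals was not tested. No pair with Hspa5, Sdf2l1 or Dnajb9 was called by Pearson r in either chemical. Values of 1 array share its RNA, hybridisation and normalization, and their part in these correlations was not tested.

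Some arrays were the lowest or highest of their group for several members. At DMPT 20 mg/kg replicate 1 was the lowest of its group for 7 of the 10 members, while replicate 2 was the highest for 6. Among the p-toluidine vehicle arrays replicate 5 was the highest for Ddit3, Ddit4, Trib3, Asns and Herpud1. At p-toluidine 6 mg/kg replicate 1 was the highest for 6 members and replicate 4 the lowest for 5, Atf3, Ddit3, Ddit4, Trib3 and Asns. These arrays were picked for their counts, and several of these members vary together, so the counts are not independent signs. The share of all probe sets for which the same arrays were lowest or highest was not computed.

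**Figure D5:**
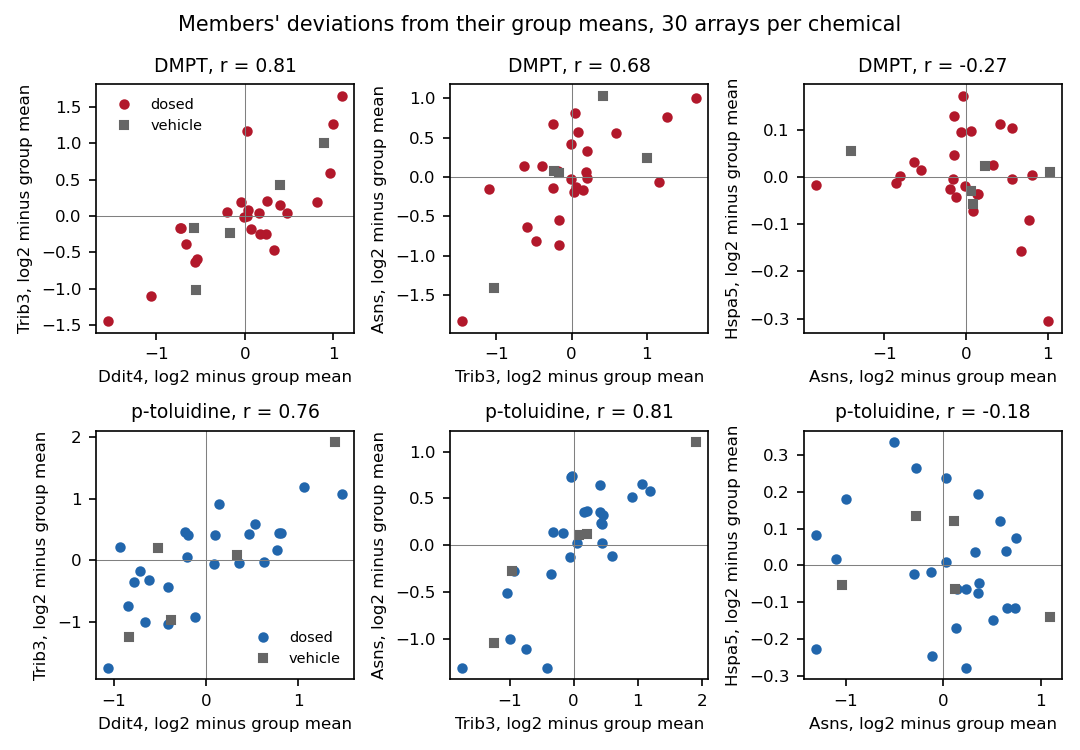
Deviations of each array from its group mean (log2) for 3 pairs of members, with DMPT above and p-toluidine below (30 arrays each, coloured circles for dosed arrays and grey squares for vehicle arrays). Ddit4 with Trib3 (r = 0.81 and 0.76) and Trib3 with Asns (r = 0.68 and 0.81) rise together, while Asns with Hspa5 (r = -0.27 and -0.18) does not.

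Over all genes, the nearest patterns to each member are given as a description. They were ranked by the lower of its r over the 30 DMPT arrays and over the 30 p-toluidine arrays. Picking the highest of all genes raises these r, and the r that such a pick gives for other genes was not computed. Nearest to Asns were Psat1, an enzyme of serine synthesis (r = 0.97 with DMPT and 0.94 with p-toluidine), the stress regulator Nupr1 (0.93 and 0.86) and the glycyl-tRNA synthetase Gars1 (0.88 and 0.85). Nearest to Ddit4 were Fgf21, a hormone that liver secretes (0.90 and 0.91), and Atf4 itself (0.88 and 0.77), followed by Trib3. Trib3 was nearest to Fgf21 (0.85 and 0.84) and to the tRNA synthetases Yars1 (0.82 and 0.81) and Aars1 (0.78 and 0.80).

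Atf3 was nearest to the transcription factor gene Egr2 (0.78 and 0.82), to Gdf15, which encodes a secreted stress hormone (0.79 and 0.75), and to Jun, a partner in AP-1 (0.80 and 0.75). Ddit3 was nearest to Nedd9 (0.68 and 0.81), the amino acid transporter gene Slc38a2 (0.67 and 0.80) and Rassf1 (0.66 and 0.72). Hspa5 was nearest to its ER co-chaperone Dnajb11 (0.73 and 0.74), to Creld2, an ER protein gene (0.64 and 0.85), and to C18h18orf32 (0.63 and 0.71), and Sdf2l1 to Isyna1 (0.75 and 0.69), Tjp3 (0.72 and 0.68) and the lectin chaperone gene Calr (0.68 and 0.84). Pck2 was nearest to Copz2 (0.71 and 0.66), Cox14 (0.64 and 0.74) and Acot3 (0.69 and 0.64). Herpud1 was nearest to Adcy10 (0.69 and 0.69), Irf2bp2 (0.73 and 0.68) and Cyp2e1 (0.66 and 0.64), and Dnajb9 to Eif1a (0.65 and 0.71), C17h7orf25 (0.63 and 0.68) and Zfp260 (0.61 and 0.59).

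Other genes of the pathways were taken from lists, whose counts stand beside the share of all probe sets called at each dose (for DMPT 2.61%, 5.2% and 9.8% at 20, 60 and 120 mg/kg, and for p-toluidine 0.786%, 4.51% and 10.7%). Of 34 further ATF4 target genes, 2 rose and none fell at DMPT 60 mg/kg: Gdf15 by 1.54 ± 0.32 (adjusted p = 0.00349), and Ppp1r15a, which encodes the eIF2 phosphatase subunit GADD34, by 0.31 ± 0.09 (adjusted p = 0.046). At DMPT 120 mg/kg 1 rose, the serine synthesis gene Phgdh by 1.12 ± 0.29 (adjusted p = 0.0119), and 5 fell: Atf5 by 0.86 ± 0.18 (adjusted p = 0.00129), Aldh18a1 by 0.63, Slc3a2 by 0.60, Sesn2 by 0.42 and Shmt2 by 0.32. None was called at DMPT 1, 6 or 20 mg/kg. The list's median was 0.04 at 60 mg/kg and -0.10 at 120 mg/kg (log2), beside 0.00 for all probe sets at each dose.

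At p-toluidine 120 mg/kg 7 of the 34 rose and 2 fell, with a median of 0.11. The largest rises were those of Psat1 (1.65 ± 0.39, adjusted p = 0.00401) and Phgdh (1.49 ± 0.28, adjusted p = 0.000469), followed by Eif4ebp1, a repressor of cap-dependent translation (0.62 ± 0.12), and Slc7a5, an importer of large amino acids (0.59 ± 0.11). Slc7a1, Slc7a11 and Mthfd2 also rose, and Cth and Gpt2 fell, by 0.42 ± 0.11 and 0.35 ± 0.09. At 60 mg/kg Eif4ebp1 alone was called of this list (0.44 ± 0.12, adjusted p = 0.0347), and at the lower doses none.

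Of the 32 genes for ER chaperones, folding, export and degradation found on the array of the 33 listed, more fell than rose at each dose with a call. All called probe sets split into 17 higher and 35 lower at DMPT 6 mg/kg, where 0.168% of all probe sets were called. At DMPT 20, 60 and 120 mg/kg the split was 484 and 326, 600 and 1013, and 1326 and 1717. With p-toluidine it was 150 and 94 at 20 mg/kg, 657 and 743 at 60 mg/kg and 1763 and 1574 at 120 mg/kg. At DMPT 20 mg/kg none rose and 5 fell, among them Creld2 by 0.57 ± 0.09 (adjusted p = 0.00045), the Hspa5 co-chaperone gene Dnajb11 by 0.51 ± 0.08 (adjusted p = 0.000271), Hyou1, an exchange factor of Hspa5, by 0.45 ± 0.11, and Hsp90b1, the ER form of HSP90, by 0.39 ± 0.07. At 6 mg/kg Creld2 fell by 0.45 ± 0.09 (adjusted p = 0.0287). At 60 mg/kg 1 rose, P4hb by 0.27 ± 0.06, and 7 fell, and at 120 mg/kg 1 rose, Ssr1 by 0.31 ± 0.09, and 6 fell, with the degradation genes Derl1 and Derl2 lower by a log2 difference of -0.38 ± 0.06 and -0.41 ± 0.07. The list's medians were -0.11, -0.09, -0.07 and -0.04 at 6, 20, 60 and 120 mg/kg.

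With p-toluidine 1 ER gene fell at 20 mg/kg, Ero1a, an oxidase of disulfide formation (-0.39 ± 0.07, adjusted p = 0.00298). Of the ER genes 2 rose and 7 fell at 60 mg/kg. Among those that fell, Creld2 was lower by 0.66 ± 0.15 and Dnajb11 by 0.47 ± 0.11. At 120 mg/kg 5 rose, Pdia3 (0.52 ± 0.10), Ssr1 (0.48 ± 0.09), P4hb (0.38 ± 0.07), Sec31a (0.37 ± 0.08) and Pdia6 (0.27 ± 0.08), of which Pdia3, Pdia6 and P4hb encode disulfide isomerases. In all, 7 fell, with Creld2 (-0.55 ± 0.15), Ero1a (-0.38 ± 0.07), Derl2 (-0.37 ± 0.07) and Derl1 (-0.31 ± 0.06) the largest, and the median was 0.01. At the dose where Sdf2l1 rose, the list moved in both directions.

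Among 13 sensors and regulators on the array of the 14 listed, Atf4 rose at DMPT 20 and 60 mg/kg. The rises were 0.60 ± 0.17 and 0.74 ± 0.17 (limma adjusted p = 0.0459 and 0.00662). Ddit4 was called at the same doses and Asns and Trib3 at neither, and a link to Atf4 was not tested. No other regulator rose at any dose. Eif2b5, a subunit of the exchange factor that eIF2 phosphorylation inhibits, fell by 0.26 ± 0.07 at DMPT 60 mg/kg and by 0.25 ± 0.07 at 120 mg/kg, and Mbtps1, a protease that activates ATF6, fell by 0.27 ± 0.06 at 120 mg/kg. With p-toluidine, Nfe2l2, the antioxidant regulator NRF2, fell by 0.57 ± 0.10, 0.65 ± 0.10 and 0.34 ± 0.10 at 20, 60 and 120 mg/kg (adjusted p = 0.00338, 0.000104 and 0.0226). ATF4 protein is known to be controlled mainly at translation, which arrays do not measure.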

How the data were processed

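Per the submitters' processing notes the authors made the values with RMA (robust multi-array average), without a stated version; the deposited values, 0.0507 to 13.9, were taken as log2 expression from that method and range. For the genome build, the sources used here give none. Of 31099 probe sets 57 controls were left out, which left 31042. The platform annotation gave 20826 of these 1 gene symbol, 436 several and 9780 none; 20758 had a gene ID in the RefSeq table of GRCr8, and 14217 genes were named. No normalization was added, and no counts exist, so the number of arrays limits the precision.

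One limma fit (version 3.58.1, R 4.3.3) was made for each chemical over its 6 groups, and responses were compared in a fit of all 60 arrays, with p-values adjusted by Benjamini-Hochberg over every probe set tested and a threshold of 0.05. Correlations used 100000 permutations. Python 3.11.15, numpy 2.4.6, pandas 2.3.3, scipy 1.17.1 and matplotlib 3.10.9 were used. The fits were tested on simulated data. All 10 members were named, with the 3 nearest genes of each by the lower r of both chemicals, and the called genes of each list; those beyond the 4 with the largest change at a dose were named after their values were seen. The members and lists were chosen with earlier results of these data known. Alternatives were quantile normalization, a filter that kept probe sets above the median mean, array weights, the mean of a gene's probe sets, fits of only the groups compared, a replicate block, Spearman correlation, leaving out the arrays of narrow spread and leaving out each array in turn.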

Additional observations from a re-analysis of the deposited data

Results flagged for a closer look

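Of 120 sets of 5 arrays (10 members in 12 groups), 5 held an array far from its group by Dixon's test, where chance gives about 1 in 20. Atf3 read 2.60 on replicate 2 at p-toluidine 20 mg/kg, with the other arrays between 1.73 and 1.83. Asns read 3.25 on replicate 4 at p-toluidine 6 mg/kg, with the others between 4.70 and 5.14. Pck2 read 6.00 on replicate 2 at DMPT 120 mg/kg, with the others between 6.25 and 6.33; this array is among those of narrow spread. Sdf2l1 read 6.64 on replicate 3 of the DMPT vehicle group, with the others between 7.40 and 7.70. Herpud1 read 8.81 on replicate 1 at DMPT 1 mg/kg, with the others between 8.09 and 8.23. The Pck2 call at DMPT 120 mg/kg was kept without its replicate 2.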

How the results depend on the processing

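Of the 17 member calls, 10 were kept in every alternative and 11 in every fit that left out an array, and no call changed sign. Leaving out an array in turn gave 0 to 1 member calls at DMPT 6 mg/kg, 1 to 2 at DMPT 120 mg/kg, 1 to 2 at p-toluidine 60 mg/kg and 0 to 1 for p-toluidine 120 against 60 mg/kg. Such fits also lost the Pck2 calls at DMPT 20 and 60 mg/kg (in 2 and 7 of 10) and the Asns call at p-toluidine 120 mg/kg (in 6 of 10). The Hspa5 call at DMPT 6 mg/kg gave way to 0 calls without the arrays of narrow spread, in a fit of only the groups compared and with a replicate block (adjusted p = 0.09, 0.123 and 0.0657). At p-toluidine 60 mg/kg 1 call was left, that of Pck2, with quantile normalization and in a fit of only the groups compared. Array weights added Atf3 at DMPT 20 mg/kg and Ddit4 and Hspa5 at p-toluidine 120 mg/kg (4 and 6 calls, against 3 and 4), and the filter on dim probe sets added Ddit4 at p-toluidine 120 mg/kg (5 calls). The mean of a gene's probe sets lost Pck2 at DMPT 60 mg/kg (adjusted p = 0.0531). Quantile normalization left 6 called correlations for DMPT, against 12. The cause was not tested.

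Same-numbered arrays showed little shared deviation (r between -0.39 and 0.32, at most 2 of 5 pairs over 0.1), and the main fits did not pair them. With so few pairs per comparison this check cannot exclude that the same numbers mark a shared batch or order. With the replicate block 46 probe sets were called at DMPT 6 mg/kg, against 52.

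Over all probe sets, the calls at DMPT 6 mg/kg were 93 with quantile normalization, 101 with the filter on dim probe sets and 15 in a fit of only the groups compared, against 52. At DMPT 20 mg/kg array weights gave 1627 against 810. Fits of only the groups compared gave 899 against 1613 at DMPT 60 mg/kg, 133 against 244 at p-toluidine 20 mg/kg (390 with the filter on dim probe sets and 408 with array weights), 734 against 1400 at p-toluidine 60 mg/kg and 75 against 260 for p-toluidine 120 against 60 mg/kg. Of the other steps, DMPT 60 against 20 mg/kg had 77 with array weights and 21 in a fit of only the groups compared, against 34, DMPT 120 against 60 mg/kg had 25 without the arrays of narrow spread and 14 in a fit of only the groups compared, against 54, and p-toluidine 60 against 20 mg/kg had 5 in such a fit, against 33. Differences in response had 39 at 20 mg/kg and 21 at 120 mg/kg in such a fit, against 0 and 2, and no member was called there in any alternative.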

Other observations

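Among 10 immediate early genes on the array of the 11 listed, Klf6, a zinc finger transcription factor, was the only gene called against vehicle. It rose by 0.65 ± 0.16, 0.82 ± 0.16 and 0.56 ± 0.16 (log2, SE) at DMPT 20, 60 and 120 mg/kg (limma adjusted p = 0.0206, 0.00164 and 0.0215) and by 0.83 ± 0.20 at p-toluidine 120 mg/kg (adjusted p = 0.0045). Of all probe sets 2.61%, 5.2% and 9.8% were called at these DMPT doses and 10.7% at p-toluidine 120 mg/kg, so 1 gene of 10 was near the share at 120 mg/kg.

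Of 11 genes that answer glucocorticoid or act beside Ddit4 on mTORC1, Sgk1, a kinase that glucocorticoid and osmotic stress induce, moved most. It fell by 1.59 ± 0.23, 1.53 ± 0.23 and 1.86 ± 0.23 at p-toluidine 20, 60 and 120 mg/kg (adjusted p = 0.00034, 7.09e-05 and 9.07e-07) and by 1.40 ± 0.30 at DMPT 120 mg/kg (adjusted p = 0.0019). Tsc22d3, which encodes the glucocorticoid-induced leucine zipper protein, fell by 0.51 ± 0.10 and 0.35 ± 0.10 at DMPT 60 and 120 mg/kg (limma adjusted p = 0.00272 and 0.0264). The sestrin genes Sesn1 and Sesn3, whose proteins also restrain mTORC1, rose by 0.43 ± 0.11 and 0.42 ± 0.10 at DMPT 20 mg/kg (adjusted p = 0.0328 and 0.0124). With p-toluidine, Sesn1 rose by 0.57 ± 0.10 at 60 mg/kg, and at 120 mg/kg Sesn3 rose by 0.46 ± 0.11, Tsc2 rose by 0.30 ± 0.07 and Tat fell by 0.95 ± 0.23. Of all probe sets 2.61%, 5.2% and 9.8% were called at DMPT 20, 60 and 120 mg/kg, and 0.786%, 4.51% and 10.7% at the same doses of p-toluidine.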
